A study of Mus musculus with 18 samples.

Results

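The CDK inhibitors are the 7 mouse genes that encode the CIP/KIP proteins (Cdkn1a, Cdkn1b and Cdkn1c) and the INK4 proteins (Cdkn2a, Cdkn2b, Cdkn2c and Cdkn2d). They were taken by gene symbol from a table of 55421 genes, and all 7 were among the 18754 genes that passed the filter on low counts. Cdkn2a passed it only through later days, mainly days 7 and 14. Every library of days 0, 1 and 2 held 0 counts of it, and replicates A, B and C of day 4 held 6, 2 and 12. The study followed proximal tubules of the mouse kidney in primary culture by polyA RNA-seq on days 0, 1, 2, 4, 7 and 14, with 3 libraries per day named A, B and C. All groups came from wild type female C57BL/6J mice (the strain entry reads C57BL/6) aged 6 weeks, received no treatment and differed only in the day of harvest. The tubules were freed with collagenase, purified on a Percoll gradient and kept on plastic without subculture, so each culture holds whatever cells came through that gradient, and day 0 is the preparation before culture. The letters mark biological replicates, but whether each letter was a separate mouse or a pool is, in the sources used here, not given; the p-values then measure the spread between these libraries.

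Progress through G1 depends on CDK4 and CDK6 with D cyclins, and then on CDK2 with E and A cyclins, which together relieve the block that the retinoblastoma family places on E2F. INK4 proteins bind CDK4 and CDK6 and keep D cyclins from them, while CIP/KIP proteins bind cyclin-CDK complexes, above all those of CDK2. In the kidney, Cdkn1a is known as a p53 target induced by tubule injury, Cdkn1b and Cdkn1c mark cells that have left the cycle, and Cdkn2a and Cdkn2b accumulate in ageing and damaged tubules.

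Libraries held 23799559 to 37579097 estimated counts. The 13 proximal tubule markers summed to between 30076 and 33735 CPM (counts scaled to the size of the library) on day 0 but to between 21.3 and 37.9 on day 14, when Slc22a8, a basolateral organic anion transporter, was at 0. From day 4 on the label proximal tubule therefore names the preparation and not the markers of the cells. Markers of other tubule segments were also present at isolation. The 8 loop of Henle and distal tubule markers summed to between 5501 and 6976 CPM on day 0 and to between 291 and 561 on day 1, and the 10 collecting duct markers to between 1319.7 and 1949 and then to between 159.7 and 215. On days 4, 7 and 14 the loop and distal sums were 39.8±6.39, 118±84.5 and 110±6.42 CPM (mean ± SD). The collecting duct sums were 30.9±4.22, 134±87.3 and 74.3±25.1, and the proximal tubule sums 40.2±10.1, 26.4±14.5 and 32.3±9.47. Which cells gave these late levels was not tested. Every marker of these lists fell on day 1, the day on which Cdkn1b, Cdkn1c, Cdkn2c and Cdkn2d fell, and their part in those falls was not tested. In bulk RNA, fewer cells of a type and less RNA per cell cannot be told apart. Replicate C of day 7 stood apart in division genes, as given next, and over the table as a whole. It differed from replicates A and B by a chi-square of 139.9 and 143.0 per degree of freedom. Replicates A and B of day 7 differed by 9.55, and no other pair of libraries of 1 day by more than 46.9. Levels below are CPM scaled by TMM, as mean ± SD of 3 libraries, and differences are log2 fold changes with their standard error (SE). Every adjusted p is from edgeR's quasi-likelihood test with Benjamini-Hochberg adjustment over the 18754 genes, and a gene rose or fell where that p was under 0.05. The share of all genes that rose or fell in each comparison is given with the counts of members and applies to the gene lists too.

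Division genes opened and closed within the 14 days, and they give the course on which the inhibitors are read. The mean log2 CPM of 30 DNA replication genes was 2.94, 2.94 and 3.04 in replicates A, B and C of day 0, 3.31, 3.28 and 3.59 on day 1, 5.36, 5.84 and 5.67 on day 2, and 6.37, 6.40 and 6.26 on day 4. It was 4.13, 4.01 and 5.90 on day 7, and 3.23, 3.26 and 3.23 on day 14. Between days 1 and 2, 29 of the 30 rose and 1 fell, and between days 4 and 14 all 30 fell. For 28 mitosis genes the mean log2 CPM was 0.41, -0.02 and 0.32 on day 1, 6.74, 6.74 and 6.62 on day 4, 3.76, 3.61 and 6.09 on day 7 and 1.80, 2.01 and 2.05 on day 14. Mki67, the proliferation antigen, stood at 2.36±1.20, 1.01±0.19, 48.3±20.2, 118±15.2, 30.8±34.3 and 2.69±0.81 CPM over the 6 days (11.02 on day 7 without replicate C), and Pcna, the replication clamp, at 34.5±1.03, 68.0±0.85, 135±10.5, 168±8.53, 85±41.6 and 46.8±2.20. Day 2 is thus called entry here, day 4 the height of division and day 14 the exit, while replicate C of day 7 lay between days 2 and 4 in both lists, and replicates A and B of day 7 lay below every library of day 2 and above every library of day 14. Without that library the counts of replication genes that rose changed from 10 to 18 of 30 for day 1 against day 0 and from 10 to 27 for day 4 against day 2, and the mitosis genes that fell on day 1 changed from 3 to 12 of 28.

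Cdkn1a encodes p21, which inhibits CDK2 and binds PCNA, and it lies on chromosome 17 (29090976 to 29100727, plus strand, GRCm38, ENSMUSG00000023067). It moved in 2 waves, with its peak on day 2 and its lowest cultured level on day 4. Replicates A, B and C had 9.99, 4.32 and 9.03 CPM on day 0, 557, 469.6 and 587 on day 1, and 997, 856 and 1093 on day 2. They had 190.3, 181 and 213 CPM on day 4, 384, 398 and 264 on day 7, and 433, 449.8 and 459.8 on day 14. No 2 neighbours in the order of the days by level, which ran 2, 1, 14, 7, 4 and 0, overlapped in their libraries. The mean level on day 2 was 126 times that of day 0, and the replicate of day 7 with the most division RNA, C, had the least Cdkn1a of its day.

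From day 0 to day 1 Cdkn1a rose by a log2 fold change of 6.12 (SE 0.27, edgeR adjusted p = 2.4e-11). On that day 10 of 30 replication genes rose, where 33.1% of all genes did. Cdkn1a rose further between days 1 and 2, the step in which replication genes came up (0.87, SE 0.21, edgeR adjusted p = 0.0048). From day 2 to day 4 it fell by 2.34 on the log2 scale (SE 0.22, edgeR adjusted p = 1e-06), to 0.198 of its day 2 mean, while 26 of 28 mitosis genes rose. From day 4 to day 7 it rose again (0.84, SE 0.21, edgeR adjusted p = 0.0058), and the step from day 7 to day 14 was not called (0.36, SE 0.21, edgeR adjusted p = 0.3). Without replicate C of day 7 the step from day 4 to day 7 was 1.01 (edgeR adjusted p = 0.00037). These steps kept their direction and their call in the 28 alternatives run.

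The 2 RefSeq start sites of Cdkn1a lie 2790 bases apart, and gene-level counts do not tell which of them was used. Their upstream sequences (GRCm38.p6, plus strand) are shown because the 22 p53 targets of the next paragraph moved over the same days. Capitals in the upstream start site's window, chr17:29090729-29090975, mark a paired p53 core, CATGNNNNNNCATG, whose first base lies 48 bases before the start. This pattern is its own reverse complement and was present in 161 of 32851 windows of 250 bases before a start, 0.49%. The window of the downstream start, chr17:29093519-29093768, holds no such core and 2 GC boxes, GGGCGG on either strand, a motif in 32.7% of the windows. No match described here overlaps another.

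Cdkn1a upstream start: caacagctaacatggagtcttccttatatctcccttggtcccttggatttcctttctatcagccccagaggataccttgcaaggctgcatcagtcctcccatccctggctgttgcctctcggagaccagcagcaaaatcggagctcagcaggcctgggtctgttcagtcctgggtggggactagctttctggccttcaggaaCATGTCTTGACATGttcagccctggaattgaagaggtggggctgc

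Cdkn1a downstream start: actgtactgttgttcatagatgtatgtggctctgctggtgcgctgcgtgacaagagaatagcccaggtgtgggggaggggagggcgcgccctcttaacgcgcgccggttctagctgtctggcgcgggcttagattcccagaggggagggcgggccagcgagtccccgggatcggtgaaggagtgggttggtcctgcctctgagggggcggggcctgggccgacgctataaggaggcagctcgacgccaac

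Of the genes known as p53 targets, more moved in the direction of Cdkn1a than against it at each of 4 steps. Of 22, 15 rose and 5 fell on day 1 against day 0 (16 and 2 with library sizes alone as the scaling; median log2 fold change 1.3, against -0.01 over all genes), 13 rose and 3 fell from day 1 to day 2 (0.62 against 0.03), 3 rose and 13 fell from day 2 to day 4 (-0.50 against -0.06), and 12 rose and 1 fell from day 4 to day 7 (0.40 against 0.05). Of all tested genes, 33.1% rose and 37.1% fell on day 1, and 17% and 17.5% from day 1 to day 2. The shares were 19.4% and 22.1% from day 2 to day 4, and 22.0% and 15.9% from day 4 to day 7. The part of p53 in the course of Cdkn1a was not tested. Ccng1, a cyclin G that feeds back on p53, had 344 CPM on day 1 and 817 on day 2, a log2 fold change of 1.25 (SE 0.10, edgeR adjusted p = 1.2e-06). Trp53inp1, a p53 cofactor, had 54.3 CPM on day 4 and 117 on day 7 (1.10, SE 0.12, edgeR adjusted p = 1.2e-05). Btg2, an antiproliferative gene, went from 61.2 to 192 CPM over the same step (1.65, SE 0.21, edgeR adjusted p = 4.4e-05). Against this course, Sesn1, a stress-response sestrin, fell on day 1 from 30.4 to 5.29 CPM (-2.52, SE 0.17), and Plk3, a stress kinase, fell from day 1 to day 2.

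The transcript of p53 itself had another shape. Trp53 stood at 26.1, 114, 138, 183, 133 and 123 CPM on days 0, 1, 2, 4, 7 and 14, with its highest level on day 4, where Cdkn1a was lowest among the cultured days. Mdm2, the ubiquitin ligase of p53 and itself a p53 target, stood at 71.9, 320.0, 361, 180, 195 and 193 CPM, with its day 4 level under its day 2 level as for Cdkn1a. Both rose on day 1, Trp53 by 2.12 (SE 0.14) and Mdm2 by 2.15 (SE 0.10). Of the 9 tested genes of p53 and its direct regulators, 3 rose and 1 fell on day 1, a split of 6 to 1 with library sizes alone as the scaling and of 3 to 2 without replicate C of day 7. Chek1, a replication checkpoint kinase, followed division: it rose from 2.53 to 19.3 CPM between days 1 and 2 and fell to 2.14 CPM by day 14 from 30.8 CPM on day 4.

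MYC and the KLF and SP factors act at CDK inhibitor promoters, MYC with MIZ1 as a repressor of Cdkn1a and Cdkn2b. Myc stood at 12, 419, 249, 208, 174 and 238 CPM over the 6 days, so that its highest level fell on day 1 beside the first rise of Cdkn1a. It rose by 5.12 on day 1 (SE 0.18, edgeR adjusted p = 2.6e-12), and Klf6, a zinc finger factor that can induce p21, rose by 3.79 (SE 0.16). Of the 9 genes, 7 rose and 0 fell on day 1, and from day 1 to day 2 none rose and 4 fell, among them Myc and Zbtb17, which encodes MIZ1; the split of that step was 2 to 3 with library sizes alone and 2 to 4 without replicate C of day 7. Klf4 was the gene of this list that rose between days 4 and 14, from 5.50 to 16.7 CPM (1.60, SE 0.32, edgeR adjusted p = 0.00057).

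Cdkn1b encodes p27, whose amount is set largely by protein turnover (chromosome 6, 134920401 to 134925513, plus strand, ENSMUSG00000003031). Its transcript was scarce, with 30 to 163 estimated counts per library, and its mean spanned 2.77-fold over the days, the smallest range of the 7 genes. Replicates A, B and C had 2.51, 4.11 and 4.77 CPM on day 0, 1.06, 1.41 and 1.74 on day 1 and 1.56, 2.31 and 2.96 on day 2. They had 2.72, 3.15 and 5.0 CPM on day 4, 4.90, 4.64 and 2.14 on day 7 and 2.77, 3.49 and 3.39 on day 14. In the order 7, 0, 4, 14, 2 and 1 every neighbouring pair of days overlapped. Replicate C of day 7, with the most division RNA of its day, had the least Cdkn1b, as for Cdkn1a.

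Among the 10 comparisons Cdkn1b was called in 1: it fell on day 1 against day 0 (-1.43, SE 0.36, edgeR adjusted p = 0.0023), where the libraries of the 2 days did not overlap. The call was lost in limma on log2(TPM + 1), with an adjusted p of 0.077, and without a filter on low TPM, with 0.13. The return from day 1 to day 2 had a log2 fold change of 0.70 (SE 0.36) and an edgeR adjusted p of 0.16. The mean counts behind this comparison were 86.7 on day 0 and 37.0 on day 1.

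Several ligase genes for CIP/KIP proteins ranged more widely than Cdkn1b itself. Skp2, the F-box protein that brings p27 to its ligase, stood at 3.58, 4.23, 9.48, 29.6, 12.1 and 5.33 CPM on the 6 days, and its cofactor Cks1b at 2.86, 5.45, 43.6, 159, 76.9 and 41.5. From day 4 to day 14 both fell, Skp2 by a log2 fold change of -2.47 (SE 0.34, edgeR adjusted p = 2.3e-05) and Cks1b of -1.94 (SE 0.32). On day 7 Skp2 stood at 7.72, 6.69 and 21.8 CPM in replicates A, B and C, so that its day 7 mean was 7.21 CPM without replicate C. Dtl, the receptor of the ligase that destroys p21 and replication licensing factors in S phase, rose from 3.18 to 35.1 CPM between days 1 and 2 (3.46, SE 0.48) and fell to 4.63 CPM by day 14. Rnf123, a subunit of the ligase that acts on p27 in G1, took the other course, with 30.3 CPM on day 4 and 62.2 on day 14 (1.04, SE 0.12). Of the 12 genes of this list, 5 rose and 2 fell from day 1 to day 2 (8 and 1 with library sizes alone), and 2 rose and 5 fell from day 4 to day 14.

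FOXO factors are known activators of Cdkn1b. Foxo1 stood at 76.7, 46.4, 37.1, 39.4, 57.6 and 75.6 CPM over the 6 days, lowest through days 2 and 4. Of the 4 FOXO genes none rose and 2 fell on day 1 (Foxo1 by 0.73 and Foxo4 by 1.81 on the log2 scale), and 3 rose and none fell from day 4 to day 14. In that second comparison Foxo1 rose by 0.94 (SE 0.15), Foxo3 by 0.64 (SE 0.24) and Foxo6 by 1.35 (SE 0.52), the last from 0.301 to 0.767 CPM.

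Cdkn1c encodes p57, the CIP/KIP protein tied to terminal differentiation, and lies in an imprinted cluster on chromosome 7 (143458339 to 143461050, minus strand, ENSMUSG00000037664). It was the member with the most RNA per length on day 0, and its course was a dip and an overshoot. Replicates A, B and C had 47.1, 54.5 and 36.3 CPM on day 0, 28.3, 38.6 and 20.6 on day 1 and 15.98, 19.5 and 13.9 on day 2. They had 35.4, 35.8 and 31.7 CPM on day 4, 42.6, 43.0 and 35.8 on day 7 and 90.9, 77.8 and 65.5 on day 14. Day 14 lay above every library of the other days and day 2 below every one, while days 0 and 7 overlapped, as did days 4 and 1.

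The fall of Cdkn1c against day 0 reached -1.48 on day 2 (SE 0.21, edgeR adjusted p = 7.4e-06). From day 2 to day 4, still within the rise of mitosis genes, Cdkn1c rose by 1.06 (SE 0.20, edgeR adjusted p = 0.00065). From day 7 to day 14 it rose by 0.95 (SE 0.20, edgeR adjusted p = 0.0064), and its day 14 level was above day 0 by 0.76 (SE 0.20, edgeR adjusted p = 0.0029). The smaller fall on day 1 (-0.66, SE 0.20, edgeR adjusted p = 0.0082) rested on overlapping libraries and was lost with library sizes alone (-0.37, adjusted p = 0.076), with only the libraries of days 0 and 1, in limma on TPM and without replicate C of day 1. The fall from day 1 to day 2 (-0.82, SE 0.20, edgeR adjusted p = 0.0052) was lost in limma with no filter on low TPM, at an adjusted p of 0.061.

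Podocytes and stromal cells are known to hold Cdkn1c, so their markers are given beside it. The 12 podocyte markers summed to between 584 and 754 CPM on day 0 and to between 220 and 261 on day 14, with none at 0. The 12 fibroblast and pericyte markers summed to between 107 and 124 CPM on day 0, 42.2 and 69.0 on day 4 and 200.2 and 242 on day 14, when Lum and Dpt, matrix genes of fibroblasts, were at 0. The 12 endothelial markers fell from between 251 and 299 CPM to between 22.0 and 23.3, with none at 0. The stromal sum was highest on day 14, as Cdkn1c was, but single markers went both ways: of the 10 tested, 5 rose and 5 fell from day 4 to day 14 (median log2 fold change 0.55), and 4 rose and 5 fell on day 14 against day 0 (-0.67). The collagen genes Col1a1 and Col1a2, named after their values were seen, went from 2.88 to 74.6 and from 13.8 to 64.7 CPM between days 4 and 14. Rgs5, a pericyte gene, went from 3.63 to 0.301 CPM. The part of these cells in the level of Cdkn1c was not tested. Of the neighbours of Cdkn1c in its cluster, 8 of 10 were tested, of which 2 rose and 3 fell from day 4 to day 14. Cd81, a tetraspanin, rose from 231 to 740 CPM (1.68, SE 0.14) and Slc22a18, an imprinted transporter, from 3.46 to 16.1 (2.21, SE 0.27), while Phlda2, an imprinted growth regulator, fell from 4.68 to 1.77 (-1.41, SE 0.25). H19 and Igf2, at 0.630 CPM or less on every day, were near the limit of detection.

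**Figure D1:**
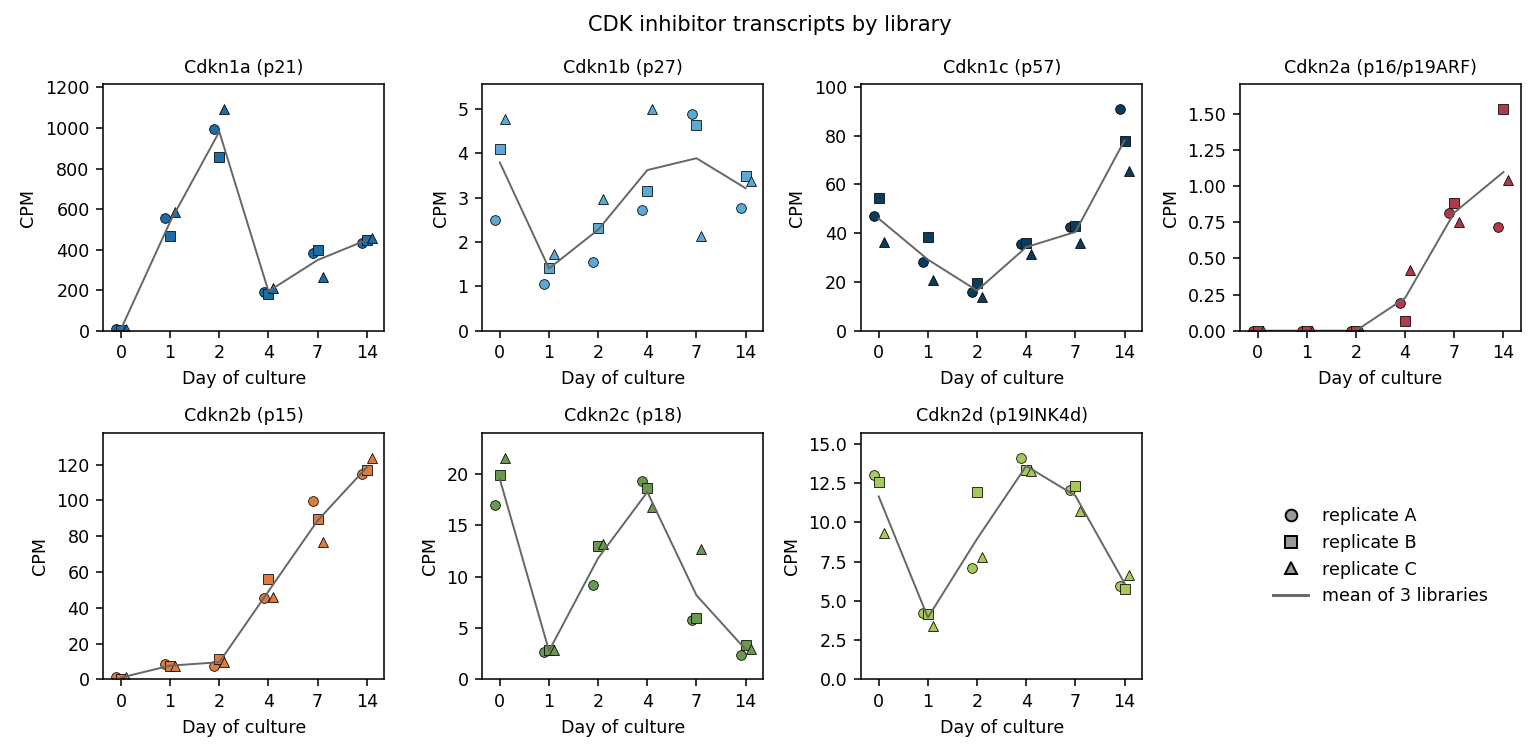
Level of each CDK inhibitor in CPM (vertical axis, linear and starting at 0, scaled separately for each gene) by day of culture (horizontal axis, days spaced evenly), with 1 point per library and a line through the means of 3 libraries. Cdkn1a peaked at 982 CPM on day 2 and had its lowest cultured mean, 195 CPM, on day 4, while Cdkn2b climbed to 118 CPM on day 14.

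Among the INK4 genes, Cdkn2b rose in 3 of the 5 steps between sampled days and fell in none. It encodes p15, the INK4 protein known as a TGF-beta target, on chromosome 4 (89306299 to 89311039, minus strand, ENSMUSG00000073802). Replicates A, B and C had 1.28, 0.40 and 1.18 CPM on day 0, 8.49, 7.19 and 7.29 on day 1 and 7.32, 11.6 and 9.70 on day 2. They had 45.6, 56.3 and 45.8 CPM on day 4, 99.5, 89.8 and 76.9 on day 7 and 114, 117 and 124 on day 14. Days 1 and 2 overlapped, and the libraries of every other pair of days were apart. The mean of day 14 was 125 times that of day 0.

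Cdkn2b rose by 3.07 on day 1 (SE 0.27, edgeR adjusted p = 6.3e-08), by 2.37 from day 2 to day 4 (SE 0.21, edgeR adjusted p = 5.3e-07) and by 0.85 from day 4 to day 7 (SE 0.20, edgeR adjusted p = 0.0033). The steps from day 1 to day 2 (0.31, SE 0.21) and from day 7 to day 14 (0.42, SE 0.19) were not called, with edgeR adjusted p of 0.27 and 0.18. Its largest gain after day 1 therefore fell in the interval in which mitosis genes reached their height, and in the interval in which Cdkn1a fell. On day 7, replicate C had the least Cdkn2b of its day, and the rise from day 4 was 0.94 without it. A gap of 11645 bases separates the annotated spans of Cdkn2b and Cdkn2a. The sequence before the RefSeq start of Cdkn2b (chr4:89311040-89311282, minus strand, GRCm38.p6) is shown to set it beside that of Cdkn2a. It holds no paired p53 core, GC box or E2F letters, here TTTCCCGC, TTTCCCGG, TTTCGCGC, TTTCGCGG, TTTGCCGC, TTTGCCGG, TTTGGCGC or TTTGGCGG on either strand, which 3.68% of windows hold.

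Cdkn2b start: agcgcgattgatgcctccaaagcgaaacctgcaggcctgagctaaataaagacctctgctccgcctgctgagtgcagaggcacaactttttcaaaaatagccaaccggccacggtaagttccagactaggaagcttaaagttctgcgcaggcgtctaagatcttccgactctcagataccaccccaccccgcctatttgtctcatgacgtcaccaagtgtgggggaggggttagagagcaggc

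Most TGF-beta inputs rose on day 1, as Cdkn2b did, and each later step had fewer calls than day 1, without a steady decline. Of 10 genes of this list, 8 rose and 0 fell on day 1 (median log2 fold change 1.04, against -0.01 over all genes). From day 2 to day 4, the step in which Cdkn2b rose by 2.37, 3 rose and 2 fell (0.15 against -0.06). Between days 4 and 7, 5 rose and 0 fell (7 and 0 without replicate C of day 7), and from day 7 to day 14, 1 rose and 2 fell. Over the whole interval from day 4 to day 14, 6 rose and 1 fell (2 without replicate C of day 7; 0.31 against 0.03). Smad2, a receptor-activated SMAD, rose from 46.4 to 104 CPM on day 1 (1.16, SE 0.08), and Skil, a SMAD corepressor, from 29.9 to 82.9 (1.47, SE 0.10). From day 1 to day 2, when Cdkn2b was not called, 2 rose and 1 fell, a split of 6 to 0 with library sizes alone and 4 to 1 without replicate C of day 7. Tgfb2, a ligand, stood at 2.58, 2.11, 2.26, 5.12, 58.2 and 97.8 CPM over the days and rose by 4.25 from day 4 to day 14 (SE 0.45, edgeR adjusted p = 2.8e-06). Its day 7 values were 79.4, 80.1 and 15.1 CPM in replicates A, B and C, lowest in the library with the most division RNA. Tgfb1 was the gene that fell, from 26.4 to 15.1 CPM.

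Cdkn2a encodes 2 unlike proteins from separate first exons, p16INK4a, which binds CDK4 and CDK6, and p19ARF, which stabilises p53 (chromosome 4, 89274471 to 89294653, minus strand, ENSMUSG00000044303). It was at 0 in all 9 libraries of days 0, 1 and 2, and present in all 9 of days 4, 7 and 14. The libraries of replicates A, B and C held 6, 2 and 12 estimated counts on day 4, 27, 25 and 20 on day 7 and 23, 43 and 32 on day 14. As levels these were 0.19, 0.06 and 0.42 CPM on day 4, 0.81, 0.89 and 0.75 on day 7 and 0.71, 1.53 and 1.04 on day 14. Day 4 lay under day 7 in every library, and days 7 and 14 overlapped.

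With a floor of 3 counts over the 3 libraries of day 0, 0.0439 CPM, Cdkn2a was at least 5.02-fold higher on day 4, at least 18.6-fold higher on day 7 and at least 24.6-fold higher on day 14 (floors cover counting error only). No p is given for these, since the gene passed the filter only through the days on which it was high. Without replicate C of day 4, which held 12 of the 20 counts of that day, the first bound was 2.92-fold. Without single libraries of day 0 the 3 bounds were 2.98 to 3.59, 11.1 to 13.3 and 14.6 to 17.6-fold, the floor then covering fewer reads. Against the floor of day 2 it was at least 6.45-fold higher on day 4, 3.76-fold without replicate C of day 4 and 4.15 to 4.49-fold without single libraries of day 2. From day 4 to day 14 its log2 fold change was 2.27 (SE 0.54), and from day 4 to day 7 it was 1.85 (SE 0.55). No p is given here either, since the gene passed the filter mainly through days 7 and 14. The step from day 4 to day 7 lost its call with only the libraries of those days, and without replicate A or B of day 4 or of day 7.

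The 2 RefSeq starts of Cdkn2a lie 12427 bases apart. Counts per gene cannot tell p16INK4a from p19ARF RNA. The window of the upstream start, chr4:89294654-89294869 (minus strand, GRCm38.p6), is shown because it holds an E2F match, in capitals, with its first base 99 bases before the start, and because E2F1, whose gene rose from 2.72 to 20.9 CPM between days 1 and 2, is a known inducer of ARF. Cdkn2a was still at 0 counts on day 2, and a link to E2F1 was not tested. The downstream window holds none of the 3 motifs.

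Cdkn2a upstream start: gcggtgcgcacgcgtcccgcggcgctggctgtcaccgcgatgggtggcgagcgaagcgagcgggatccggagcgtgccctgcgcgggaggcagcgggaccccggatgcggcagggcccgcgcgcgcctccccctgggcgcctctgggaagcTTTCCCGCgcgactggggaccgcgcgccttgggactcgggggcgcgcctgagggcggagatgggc

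Polycomb proteins hold the INK4 and ARF locus silent in young cells, and EZH2 is the methyltransferase among them. Ezh2 stood at 6.84, 14.9, 57.7, 112, 55.7 and 31.3 CPM over the days, so its highest level fell on day 4, the day on which Cdkn2a was first seen. It rose by 1.95 from day 1 to day 2 (SE 0.17, edgeR adjusted p = 1.5e-06) and fell by 1.84 from day 4 to day 14 (SE 0.16, edgeR adjusted p = 6.3e-07). Bmi1, a subunit of the other Polycomb complex, rose over that interval from 61.4 to 84.9 CPM (0.47, SE 0.07), and Kdm6b, the demethylase that removes the mark of EZH2, rose from 3.61 to 8.62 CPM between days 4 and 7 (1.25, SE 0.23). Ets1, an activator of p16INK4a, rose on day 1 from 20.9 to 281 CPM (3.75, SE 0.11). Of the 21 genes of this list, 11 rose and 8 fell on day 1, 5 rose and 5 fell from day 1 to day 2 (9 to 1 with library sizes alone), and 9 rose and 6 fell from day 4 to day 14. Of the neighbours Mtap, Dmrta1 and Ifne, Mtap, the methylthioadenosine phosphorylase gene, was the one tested: it rose on day 1 (1.12, SE 0.11) and fell from day 4 to day 14 (-0.61, SE 0.11), the opposite of Cdkn2a and Cdkn2b in that interval.

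Cdkn2c encodes p18, an INK4 protein of dividing and differentiating cells, on chromosome 4 (109660876 to 109667189, minus strand, ENSMUSG00000028551). Its RNA was high at isolation, low on day 1, high again at the height of division and low at exit. Replicates A, B and C had 17.04, 19.9 and 21.6 CPM on day 0, 2.62, 2.82 and 2.86 on day 1 and 9.23, 13.0 and 13.2 on day 2. They had 19.3, 18.7 and 16.8 CPM on day 4, 5.83, 5.99 and 12.8 on day 7 and 2.39, 3.35 and 2.97 on day 14. On day 7, replicate C had the most Cdkn2c, and its mitosis mean was also the highest of the day, at 6.09 log2 CPM. Days 0 and 4 overlapped, as did days 2 and 7 and days 14 and 1.

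On day 1 Cdkn2c fell by 2.82 on the log2 scale (SE 0.27, edgeR adjusted p = 1.3e-07), and from day 1 to day 2 it rose by 2.09 (SE 0.26, edgeR adjusted p = 2.3e-05). It fell by 1.16 from day 4 to day 7 (SE 0.25, edgeR adjusted p = 0.0019), or by 1.63 without replicate C of day 7, and by 1.49 from day 7 to day 14 (SE 0.26, edgeR adjusted p = 0.002), or by 1.03 without it. The last of these was lost with only the libraries of days 7 and 14, at 0.10. From day 4 to day 14 it fell by 2.65 (SE 0.26, edgeR adjusted p = 1.6e-06). The rise from day 2 to day 4 (0.63, SE 0.24, edgeR adjusted p = 0.049) was called in 12 of 28 alternatives and had an adjusted p of up to 0.13 in the others, and day 2 against day 0 (-0.72, SE 0.24, edgeR adjusted p = 0.014) was lost with library sizes alone, at 0.47, and without replicate A of day 2, at 0.087. A stretch of 28 bases before the downstream of 2 RefSeq starts (chr4:109665555-109665582, minus strand, GRCm38.p6) is shown for its E2F match, in capitals, since Cdkn2c is a known E2F target. The first base of the match lies 200 bases before that start. The window of 250 bases before that start begins inside an annotated exon of Cdkn2c. The window of the upstream start holds no E2F match and 3 GC boxes.

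Cdkn2c downstream start, E2F match: atactttttcTTTCGCGGtgttgtctga

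Cdkn2d encodes p19INK4d, an INK4 protein that oscillates with the cycle, on chromosome 9 (21288410 to 21291407, minus strand, ENSMUSG00000096472). It followed Cdkn2c with a smaller range, 3.45-fold from day 1 to day 4. Replicates A, B and C had 13.0, 12.6 and 9.34 CPM on day 0, 4.25, 4.15 and 3.41 on day 1 and 7.10, 11.95 and 7.78 on day 2. They had 14.1, 13.4 and 13.3 CPM on day 4, 12.1, 12.3 and 10.7 on day 7 and 5.97, 5.77 and 6.61 on day 14. Day 1 was the lowest and day 4 the highest, each apart from its neighbour, and days 7, 0 and 2 overlapped in turn. Unlike Cdkn2c, Cdkn2d was not highest in replicate C of day 7, whose value was the lowest of that day.

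Cdkn2d fell by 1.57 on day 1 (SE 0.19, edgeR adjusted p = 1.9e-06) and rose by 1.18 from day 1 to day 2 (SE 0.19, edgeR adjusted p = 0.00017). Its rise from day 2 to day 4 (0.60, SE 0.18, edgeR adjusted p = 0.013) was lost without replicate C of day 2, at 0.062. The step from day 4 to day 7 was not called (-0.22, SE 0.18, edgeR adjusted p = 0.36), and from day 7 to day 14 it fell by 0.93 (SE 0.18, edgeR adjusted p = 0.0042). Day 14 against day 0 (-0.93, SE 0.18, edgeR adjusted p = 0.00028) was lost with library sizes alone (-0.36, adjusted p = 0.073) and in limma on TPM. Days 4 and 7 against day 0 (0.22 and 0.00, edgeR adjusted p = 0.27 and 0.98) were called higher with library sizes alone, at 0.72 and 0.51, and in limma on TPM.

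**Figure D2:**
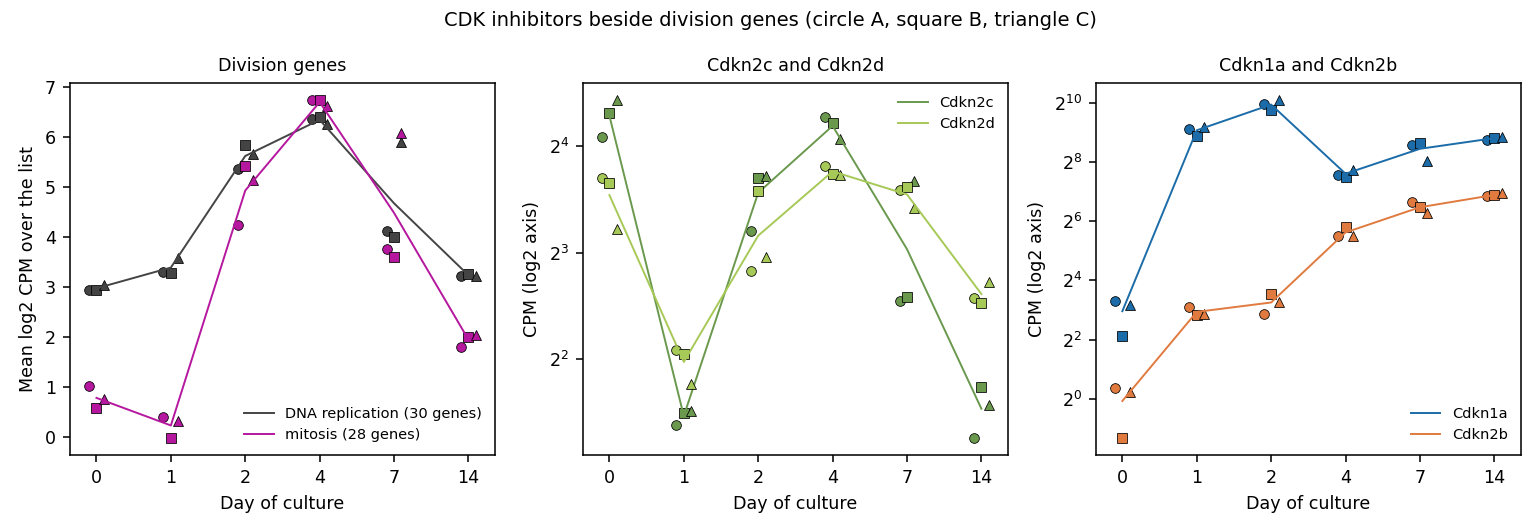
Mean log2 CPM of 30 DNA replication and 28 mitosis genes (left), and CPM on log2 axes of Cdkn2c and Cdkn2d (middle) and of Cdkn1a and Cdkn2b (right), against day of culture with days spaced evenly. Circles, squares and triangles are replicates A, B and C and lines join the means of 3 libraries; on day 7, replicate C is high in both division lists and in Cdkn2c and low in Cdkn1a and Cdkn2b.

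Set against each other per length, in TPM, the 7 genes changed in sum and in make-up. Over days 0, 1, 2, 4, 7 and 14 their summed level was 72.6±6.08, 558±82.6, 1142±117, 359±14.2, 621±89.0 and 892±23.7 TPM. Cdkn1c made up 50.4%±7.91 and the INK4 genes 40.7%±4.5 of it on day 0. The share of Cdkn1a was 7.11%±3.53, 91.7%±2.97, 95.1%±1.45, 60.5%±3.45, 67.5%±2.85 and 66.5%±0.57 over the 6 days. In every cultured library it was the largest share.

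Within the INK4 genes the shares turned over. Cdkn2c and Cdkn2d made up 97.3%±1.43 of the INK4 level on day 0 and 6.97%±0.11 on day 14, and Cdkn2b 2.71%±1.43 and 91.5%±0.66. Over days 1, 2, 4 and 7 Cdkn2b held 53.8%±2.49, 33.5%±0.18, 63.9%±2.98 and 81.4%±3.01. The return of Cdkn2c and Cdkn2d thus made Cdkn2b the smaller part on day 2. TPM is set so that each library sums to the same total, so these levels are shares of the RNA measured and not amounts per cell.

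**Figure D3:**
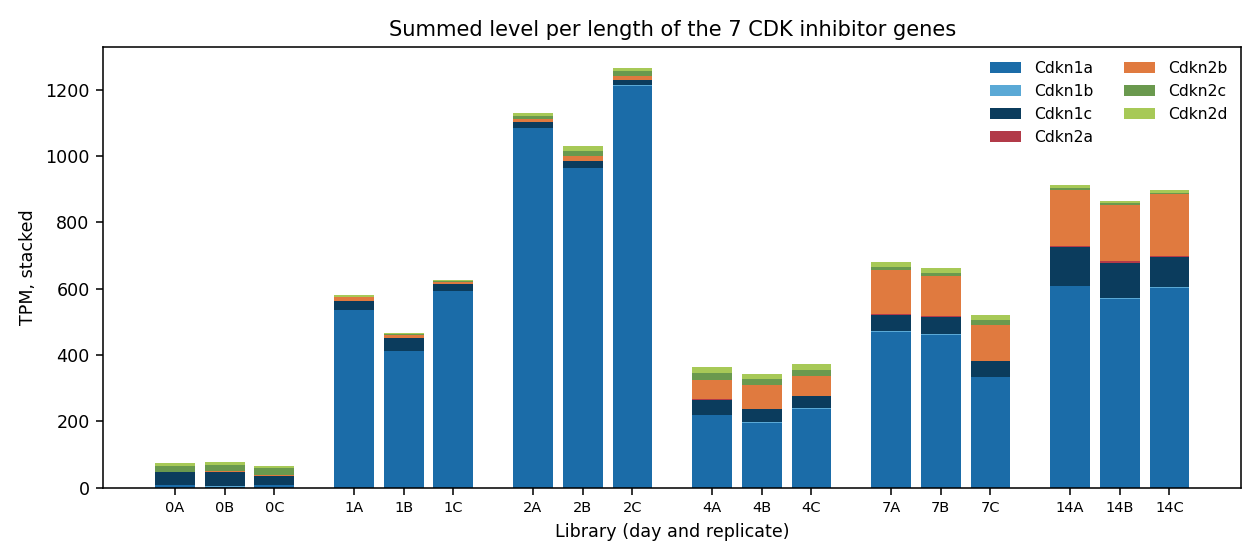
Stacked TPM of the 7 CDK inhibitor genes (vertical axis, starting at 0) in each of the 18 libraries (horizontal axis, day and replicate letter). The summed level was 72.6 TPM on day 0, 1142 on day 2 and 359 on day 4, with Cdkn1a the largest part from day 1 on.

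Of the kinases that INK4 proteins bind, Cdk4 rose on days 1 and 2 and was not called lower at exit, while Cdk6 rose early and fell late. Cdk4 stood at 80.7, 143, 231, 406, 489 and 484 TPM over the 6 days, and Cdk6 at 2.12, 26.3, 26.7, 34.4, 21.7 and 21.8. The tests used counts scaled by TMM, by which Cdk4 had 114, 138 and 187 CPM on days 0, 1 and 2. These are smaller rises than in TPM: 0.27 on day 1 (SE 0.10, edgeR adjusted p = 0.021) and 0.44 from day 1 to day 2 (SE 0.10, edgeR adjusted p = 0.0025). From day 4 to day 14, Cdk6 fell (-0.62, SE 0.17, edgeR adjusted p = 0.0074) and Cdk4 was not called. Ccnd1, a D cyclin, stood at 97.7, 63.7, 214, 441, 373 and 342 CPM, and Ccnd2, another D cyclin, at 6.36, 4.45, 5.44, 6.32, 30.0 and 241. Ccnd2 rose by 5.25 from day 4 to day 14 (SE 0.33, edgeR adjusted p = 3.9e-08), over the days on which Cdkn2b and Cdkn2a were highest. Ccnd3 fell on day 1 from 180 to 51.8 CPM (-1.80, SE 0.10), as Cdkn2c and Cdkn2d did. Of these 5 genes 2 rose and 2 fell on day 1 (2 and 1 with library sizes alone, 2 and 3 without replicate C of day 7), 3 rose from day 1 to day 2, and 1 rose and 1 fell (2 without replicate C of day 7) from day 4 to day 14.

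Most genes for CDK2 and CDK1, cyclins E, A and B and their regulators took the course of the division genes. Cdk2 stood at 10.6, 16.5, 41.4, 50.4, 32.1 and 18.6 TPM. Of 12 genes for CDK2, CDK1, their cyclins and their CDC25 and WEE1 regulators, 10 rose and 0 fell from day 1 to day 2, and 1 rose and 11 fell from day 4 to day 14. Ccna2, cyclin A2, fell from 251 to 5.35 CPM in that interval (-5.55, SE 0.62, edgeR adjusted p = 4.5e-06), and Wee1, a kinase that restrains CDK1, rose from 67.9 to 125 (0.88, SE 0.28, edgeR adjusted p = 0.014). On day 1 against day 0, 4 rose and 1 fell, and 5 rose and 4 fell without replicate C of day 7. Of 19 genes for pocket proteins, E2F factors and the MuvB complex, 11 rose and 3 fell from day 1 to day 2 (11 and 0 with library sizes alone), and 4 rose and 12 fell from day 4 to day 14. Rbl2, the pocket protein p130 of resting cells, fell on day 1 from 126 to 23.8 CPM (-2.40, SE 0.15) and rose from day 4 to day 7 from 24.3 to 37.0 (0.61, SE 0.14).

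Genes known to rise and genes known to fall in senescent cells, which also hold p16INK4a and p15, were put in 1 list. Its counts and median therefore mix both directions, and senescence was not tested. On day 14 against day 0, 10 of 19 rose and 5 fell (median log2 fold change 1.43, against 0.16 over all genes). From day 4 to day 14, 4 rose and 11 fell (-1.34 against 0.03). Igfbp7, a secreted binding protein, rose from 372 to 968 CPM (1.38, SE 0.16) and Glb1, the lysosomal beta-galactosidase, from 39.2 to 68.4 (0.80, SE 0.11), the latter still under its day 0 level of 197. Lmnb1, lamin B1, which also follows division, fell from 113 to 16.7 CPM (-2.76, SE 0.34), and Hmgb2, a chromatin protein of dividing cells, from 351 to 26.1 (-3.75, SE 0.31). Il6, a secreted cytokine of the list, fell from 1.07 to 0.201 CPM between days 4 and 7.

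The counts of members are given beside the share of all genes that moved the same way. Over all 6 days each of the 6 members other than Cdkn2a differed, where 89.8% of all genes did. Cdkn2a, which the filter admitted through the days on which it was high, is part of the counts from day 4 on: without it 2, 2 and 3 members rose on days 4, 7 and 14 against day 0, and 4 from day 2 to day 4. On day 1 against day 0, 2 members rose and 4 fell, where 33.1% of all genes rose and 37.1% fell. On day 2 against day 0, 2 rose and 2 fell (38.9% and 35.3% of all genes), on day 4 against day 0, 3 rose and 0 fell (38.1% and 36.8%), on day 7 against day 0, 3 rose and 1 fell (37.6% and 32.1%), and on day 14 against day 0, 4 rose and 2 fell (37.4% and 32.1%). These 5 comparisons share the 3 libraries of day 0. The numbers that fell depended on the scaling: with library sizes alone 1 fell on day 2 and 1 on day 14, and with DESeq2's size factors 4 fell on day 2 and 1 on day 4. The number that fell on day 2 was 1 without replicate A of day 2, and on day 4 it was 1 without replicate C of day 0, B of day 1 or C of day 1.

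Between neighbouring days fewer genes of the table moved. From day 1 to day 2, 3 members rose (Cdkn1a, Cdkn2c and Cdkn2d) and 1 fell (Cdkn1c), where 17% of all genes rose and 17.5% fell. From day 2 to day 4, 5 rose (3 without replicate C of day 2) and 1 fell, Cdkn1a being the one that fell and Cdkn1b the one not called, where 19.4% rose and 22.1% fell. From day 4 to day 7, 3 rose (Cdkn1a, Cdkn2a and Cdkn2b) and 1 fell (Cdkn2c), where 22.0% rose and 15.9% fell. From day 7 to day 14, 1 rose (Cdkn1c) and 2 fell (Cdkn2c and Cdkn2d), where 5.07% rose and 7.46% fell. From the height of division on day 4 to day 14, 4 rose (Cdkn1a, Cdkn1c, Cdkn2a and Cdkn2b) and 2 fell (Cdkn2c and Cdkn2d), where 28.6% rose and 23.3% fell. Without Cdkn2a, 2 members rose from day 4 to day 7 and 3 from day 4 to day 14. The median log2 fold change of the members from day 4 to day 14 was 1.19, or 0.51 without Cdkn2a, against 0.03 over all genes.

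**Figure D4:**
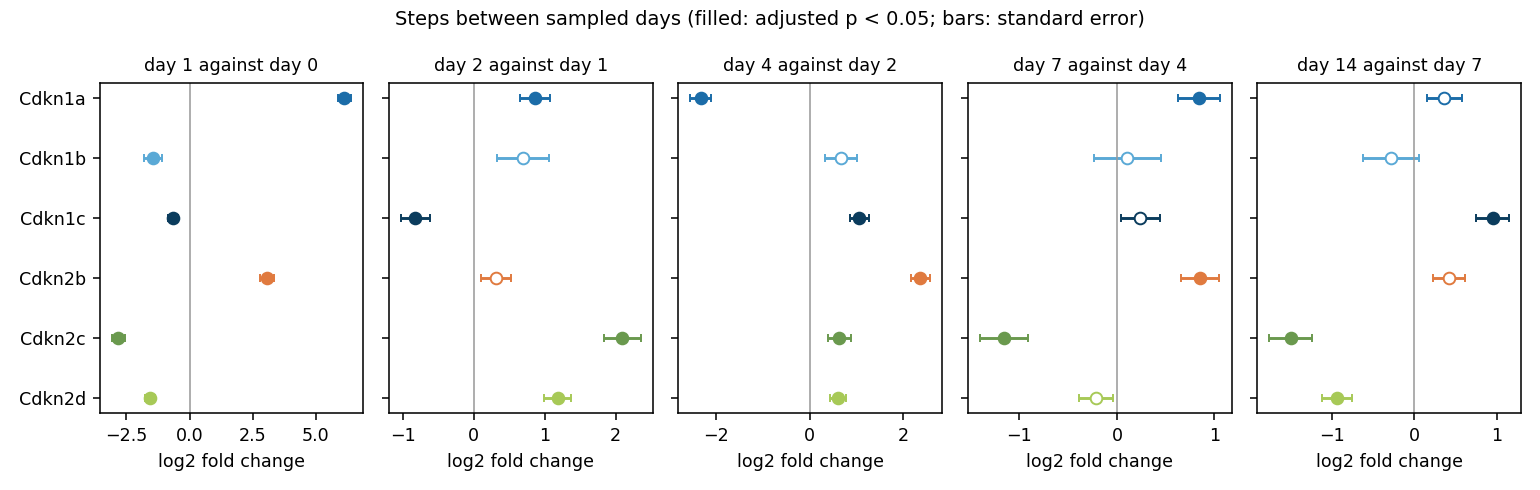
Log2 fold change (horizontal axis, scaled separately in each panel) of 6 CDK inhibitor genes between successive sampled days, with the standard error as bars, filled where the edgeR adjusted p was under 0.05. Cdkn2a is left out because its early libraries are at 0; Cdkn1a moved by 6.12 on day 1 and by -2.34 from day 2 to day 4, and Cdkn2b by 2.37 in that same step.

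Across the 18 libraries, which share their days, Cdkn2c and Cdkn2d had a Pearson correlation of log2 CPM of 0.82, Cdkn2a and Cdkn2b of 0.85, Cdkn1a and Cdkn2b of 0.64 and Cdkn1a and Cdkn2c of -0.55. Among 10933 named genes with a mean of at least 5 CPM, those of highest Pearson correlation with Cdkn1a were Pip5k1a (0.99), Maea (0.99) and Klrg2 (0.99). For Cdkn2b they were Sinhcaf (0.98), Tmeff1 (0.98) and Paqr8 (0.98), and for Cdkn2a Ergic1 (0.97), Parp8 (0.96) and Zfp516 (0.96). For Cdkn2c they were Ciao2a (0.97), Fancl (0.95) and Mrps15 (0.94), for Cdkn2d Mtmr4 (0.94), Ube2e3 (0.93) and Sgpp2 (0.92), for Cdkn1c Mfap3l (0.94), Eif4g3 (0.93) and Dapk1 (0.92), and for Cdkn1b Mospd3 (0.90), Pars2 (0.90) and Smagp (0.89). By Spearman correlation Ergic1 and Parp8 ranked 312 and 315 for Cdkn2a, which was at 0 in 9 of the 18 libraries, Maea ranked 148 for Cdkn1a, and the other genes named ranked between 1 and 69. These values describe libraries that fall into 6 days and carry no test.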

How the data were processed

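Estimated counts per gene and TPM of 18 polyA RNA-seq libraries were used as the authors deposited them. Per the submitters' processing notes, the tools include RSEM 1.3.3, STAR 2.7.8a, cutadapt 2.3 and FastQC 0.11.8, and the build is GRCm38; the strand setting is not given in the sources used here, and antisense reads could not be told apart. The deposited expected counts were rounded to whole numbers, and 5 reporter rows with no gene identifier were left out. In edgeR 4.0.16 (R 4.3.3), 18754 of 55421 genes passed filterByExpr, sizes were scaled by TMM, and a model of 6 day means over the 18 libraries gave quasi-likelihood tests of 10 comparisons, with Benjamini-Hochberg adjustment and a threshold of 0.05. Log2 CPM used a prior count of 2. The authors' deposited TPM served for levels between genes and, as log2(TPM + 1), for limma 3.58.1; DESeq2 1.42.0 was another alternative. Gene positions are from GENCODE vM21 (GRCm38); promoter windows, matched for 6 of the 7 members, are from RefSeq. The test of day 1 against day 0 was run on simulated counts in which a small part of the genes changed. Such counts cannot check the scaling, since most genes of the real table moved.

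The members and gene lists were chosen with earlier results of these data known. Named were all members, and per list up to 3 genes of smallest adjusted p in the main direction and up to 2 in the other, in 4 comparisons, lists of up to 5 genes whole, and Trp53, Mdm2, Myc, Skp2, Cdk4, Cdk6, Ccnd1, Mki67 and Pcna; Ezh2, Foxo1, Tgfb2, Cks1b, Ccnd2 and Cdk2 are followed over further days, H19 and Igf2 were chosen after their values were seen, and 3 genes of most similar pattern are named per member. The letters are not stated to mark a shared animal or batch; deviations from the day means correlated over 0.1 for all 3 letters only between days 2 and 4 (0.16 to 0.29, against -0.22 to 0.02 for different letters), and the replicate block changed no member's call in that comparison. Libraries of 1 day differed by a chi-square of at least 6.59 per degree of freedom, so none was a copy of another.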

Additional observations from a re-analysis of the deposited data

How the results depend on the processing

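The counts of members called in either direction together stayed within 1.5 times of those reported in all 28 alternatives, which included leaving out each replicate in turn, but some counts by direction did not. Members lower on day 2 against day 0 went from 2 to 1 with library sizes alone, to 4 with DESeq2's size factors and in its Wald test, and to 1 to 3 without single replicates. Those lower on day 4 against day 0 went from 0 to 1 with DESeq2's size factors, in its Wald test, with the replicate block and with only those days, with 0 to 1 without single replicates. Those lower on day 14 against day 0 went from 2 to 1 with library sizes alone and in the 3 limma fits, on day 1 against day 0 from 4 to 2 in limma on log2(TPM + 1) with and without the filter, from day 7 to day 14 from 2 to 1 with only those days, and from day 1 to day 2 from 1 to 0 in limma with no filter. Those higher from day 2 to day 4 ran from 3 to 5 without single replicates. Of 1874 values of single genes under an alternative, 1757 kept their direction and side of the threshold, 26 passed it only there, 38 no longer passed it and 53 changed sign, each of a value that was not called. For Cdkn1b, day 4 against day 0 became 0.43 with library sizes alone, 0.046 with mitochondrial genes left out and 0.32, 0.50 and 0.32 in limma (on log2(TPM + 1), on log2(TPM + 0.1) and with no filter), with -0.36 to 0.12 without single replicates. Its day 7 against day 0 became -0.058 with DESeq2's size factors, -0.058 in its Wald test and -0.047 with only those days, with -0.18 to 0.34 without single replicates. Its day 14 against day 0 became 0.32 with library sizes alone and 0.34, 0.55 and 0.34 in limma. Its day 7 against day 4 ran from -0.092 to 0.41 without single replicates, and its day 14 against day 4 from -0.34 to 0.13, with 0.018, 0.046 and 0.018 in limma. For Cdkn1c, day 4 against day 0 became 0.074 with library sizes alone and 0.15, 0.15 and 0.15 in limma, and day 7 against day 0 became 0.32 and 0.43, 0.44 and 0.43. For Cdkn2c, day 4 against day 0 became 0.40 with library sizes alone and 0.019 with mitochondrial genes left out, with -0.18 to 0.024 without single replicates. For Cdkn2d, day 2 against day 0 became 0.14 with library sizes alone and 0.17, 0.18 and 0.17 in limma, and day 7 against day 0 became -0.089 with DESeq2's size factors, -0.0904 in its Wald test and -0.070 with only those days, with -0.13 to 0.099 without single replicates. The cause was not tested.

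Library sizes alone moved the median of all genes up by 0.30 to 0.56 against day 0, and limma on TPM by 0.26 to 0.60, so changes of this size against day 0 depend on the scaling; all calls on day 14 against day 0 went from 7007 higher and 6026 lower to 10373 and 4047 with library sizes alone. Genes called from day 7 to day 14 numbered 2349, but 219 with only those days and 1214 to 1351 without single replicates of day 14. From day 4 to day 7 they numbered 7107, with 3609 with only those days and 9535 without replicate C of day 7. Over all days the correlation of the deviations of libraries of the same letter averaged 0.03, with 8 of 45 pairs over 0.1, against -0.02 and 8 of 90 for different letters; in days 2 and 4 it was over 0.1 in all 3 pairs, and the block called 7900 genes between them in place of 7771. With the replicate block, 6 members were called on day 1 against day 0 and 4 on day 4 against day 0, where Cdkn1c passed the threshold (-0.40, edgeR adjusted p = 0.0091), the one member whose call the block changed. Depth limits Cdkn2a, with at most 43 counts in a library, and Cdkn1b.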

Other observations

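Cdkn3, a phosphatase of CDKs that carries the family's symbol but belongs to neither class of CDK inhibitor, had its highest level with the mitosis genes: it stood at 0.978±0.44, 0.105±0.057, 4.53±2.80, 20.5±1.15, 5.38±4.24 and 0.464±0.12 CPM on days 0, 1, 2, 4, 7 and 14. Lockd, a long noncoding RNA transcribed next to Cdkn1b, stood at 1.08±0.38, 0.117±0.05, 1.73±0.97, 4.66±0.45, 1.93±0.80 and 0.294±0.074 CPM over the same days, on 9 to 422 counts per day. It was highest on day 4 and lowest on day 1, while Cdkn1b was highest on day 7 and also lowest on day 1. Both genes were chosen after their values were seen, and neither was tested.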
